A study of Mus musculus with 12 samples.

Results

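Krüppel-like factor (KLF) genes other than Klf2 were followed across the 4 conditions of the experiment: Klf3, Klf6, Klf7, Klf9, Klf10, Klf12 and Klf13. The members were chosen by name, with earlier results of these data known, as 7 of the 14323 gene symbols in the count table. They are not all of its KLF genes: Klf4, Klf5, Klf8, Klf11 and Klf16 are treated below as other family genes. The libraries came from naive CD8 T cells of wild type mice, sorted from spleen by their surface markers. For 6 h, 100000 cells per well were cultured on plates coated with antibody. Cells of each of 3 mice were divided over all 4 conditions, giving 12 libraries: unstimulated with isotype control, unstimulated with anti-LAIR-1, anti-CD3 with isotype control, and anti-CD3 with anti-LAIR-1. The anti-CD3ε antibody (clone 145-2C11, against the signalling chains of the T cell receptor) was coated at 2.5 µg/ml, and the anti-LAIR-1 antibody (clone 2C7) or its isotype control at 2.5 µg/ml. LAIR-1 is an inhibitory receptor for collagen, and the comparison asks how engaging it changes the response to anti-CD3. Per the study's methods the mice were adult and of the C57BL/6N strain or background; the labels name no costimulatory antibody.

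KLFs are transcription factors whose zinc fingers, at the carboxyl end, bind CACCC boxes and related GC-rich boxes in promoters. The rest of the protein decides the partner: some members (such as KLF3 and KLF12) recruit the corepressor CtBP, others (KLF9, KLF10, KLF13) recruit SIN3 with histone deacetylases, and KLF6 and KLF7 carry acidic activation domains. In T cells the family is best known through KLF2, which keeps naive cells quiescent and recirculating.

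Promoter stretches of the 3 members that responded to both antibodies and of the member that rose with anti-CD3 are shown, since family members are themselves known to be regulated through CACCC and GC boxes. The stretches are RefSeq sequence of build GRCm38.p6 and end before the start of the gene in both RefSeq and GENCODE M21. Capitals mark a CACCC box or a GC box (GGGCGG), read on either strand. In the Klf3 and Klf13 stretches a GC box and a CACCC box run into each other.
Klf3 promoter, chr5:64803271-64803387, plus strand: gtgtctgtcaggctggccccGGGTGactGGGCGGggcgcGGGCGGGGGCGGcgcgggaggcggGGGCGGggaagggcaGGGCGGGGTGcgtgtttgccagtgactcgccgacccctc
Klf6 promoter, chr13:5861239-5861481, plus strand: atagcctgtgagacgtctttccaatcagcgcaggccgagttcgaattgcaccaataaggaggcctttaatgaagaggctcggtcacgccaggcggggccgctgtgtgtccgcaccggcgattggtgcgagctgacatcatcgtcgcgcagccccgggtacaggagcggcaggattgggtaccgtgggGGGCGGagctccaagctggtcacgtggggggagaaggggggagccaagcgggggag
Klf13 promoter, chr7:63938916-63939165, minus strand: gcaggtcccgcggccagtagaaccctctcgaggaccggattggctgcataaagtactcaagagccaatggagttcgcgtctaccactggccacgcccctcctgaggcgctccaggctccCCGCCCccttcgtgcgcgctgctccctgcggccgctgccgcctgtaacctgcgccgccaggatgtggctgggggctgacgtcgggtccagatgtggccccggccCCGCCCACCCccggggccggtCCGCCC
Klf9 promoter, chr19:23140976-23141225, plus strand: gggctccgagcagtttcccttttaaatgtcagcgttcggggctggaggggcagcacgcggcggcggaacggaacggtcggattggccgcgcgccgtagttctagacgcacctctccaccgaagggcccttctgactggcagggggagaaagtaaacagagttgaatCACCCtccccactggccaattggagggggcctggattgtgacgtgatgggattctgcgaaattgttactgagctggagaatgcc
Of the 7 members, 6 matched an entry in the promoter table (all but Klf10). In the 250 bases before the RefSeq start, the Klf3 promoter held 5 CACCC boxes and 6 GC boxes, and the Klf7 promoter 3 CACCC boxes and 1 GC box. The Klf13 promoter held 1 CACCC box and 3 GC boxes, Klf9 and Klf12 each 1 CACCC box and no GC box, and Klf6 no CACCC box and 1 GC box. At least 1 CACCC box was present in 52.0% and at least 1 GC box in 32.7% of all 32851 promoter windows of that length. Numbers of boxes per window were counted for the members alone. CCAAT (both strands) was found 4 times before Klf6, 3 times before Klf9 and 2 times before Klf13, and 33.8% of all windows held at least 1. The E-box CACGTG (1 before Klf6, 6.02% of windows), the site GTAAACA bound by FOXO factors (1 before Klf9, 3.17%) and the cAMP response element TGACGTCA (in no member, 1.55%) were searched in the same way. These are matches of letters and were not tested for use.

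The genes lie on separate chromosomes in GENCODE M21 (GRCm38, the build called mm10). Klf3 is on chromosome 5 (64803388 to 64832901, plus strand), Klf6 on chromosome 13 (5861482 to 5870394, plus strand) and Klf7 on chromosome 1 (64029447 to 64122282, minus strand). Klf9 is on chromosome 19 (23141226 to 23168134, plus strand), Klf10 on chromosome 15 (38291463 to 38300706, minus strand), Klf12 on chromosome 14 (99870632 to 100284679, minus strand) and Klf13 on chromosome 7 (63886351 to 63938915, minus strand). The libraries count the 3′ ends of transcripts, and no other annotated gene covers the 3′ end of a member. The closest case is Klf7, where the lincRNA Gm26649 (64029463 to 64032927) runs the other way just inside the 3′ end. Gm26649 is not in the count table, and whether reads were counted by strand is not given in the sources used here.

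Library totals ran from 1781218 to 7725545 reads with 10816 to 11838 genes detected. Levels are given as normalised CPM (reads of a gene per 1000000 reads of its library, after TMM scaling of the library), on which 3 reads correspond to 0.404 to 1.61 CPM. The values are shares of a library, so that fewer cells of a type and less RNA per cell cannot be told apart. The summed level of 7 T cell markers (Cd3d, Cd3e, Cd3g, Cd8a, Cd8b1, Thy1, Lck) was 4107 to 4697 CPM in the unstimulated libraries, 2198 to 2379 CPM with anti-CD3 and isotype and 2584 to 2910 CPM with anti-CD3 and anti-LAIR-1. B cell markers summed to at most 10.2 CPM, Cd4 and Foxp3 to at most 4.84 CPM and NK cell markers to at most 0.661 CPM, while the myeloid list reached 63.1 CPM, nearly all of it Cst3, with Cd14, Csf1r and Itgam at most 1.63 CPM. The share of mitochondrial reads was 17.6 to 20.9% without anti-CD3 and 11.5 to 13.2% with it. Both this share and the T cell marker sum moved with anti-CD3, and the marker sum also differed without overlap between isotype and anti-LAIR-1 in stimulated cells; their part in the differences below was not tested. Early activation genes served to check the stimulus: all 11 that could be tested, of 14 listed, rose with anti-CD3 and isotype. Of all protein-coding genes tested there, 35.6% rose.

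Reads were plentiful for most members. Klf13 had 14940 reads over the 12 libraries, Klf6 10456, Klf3 3756, Klf7 1362, Klf9 1178 and Klf10 387. Klf12, a CtBP-type repressor, had 9 reads in all, 5 in unstimulated cells with isotype (2.04 CPM) and 4 in unstimulated cells with anti-LAIR-1 (1.06 CPM), both from mouse 2. The other 10 libraries held no Klf12 read, which allows a level of up to 1.61 CPM in the shallowest of the 12. Klf12 therefore did not pass the filter on low counts, and the other 6 members were tested in all 5 comparisons.

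**Figure D1:**
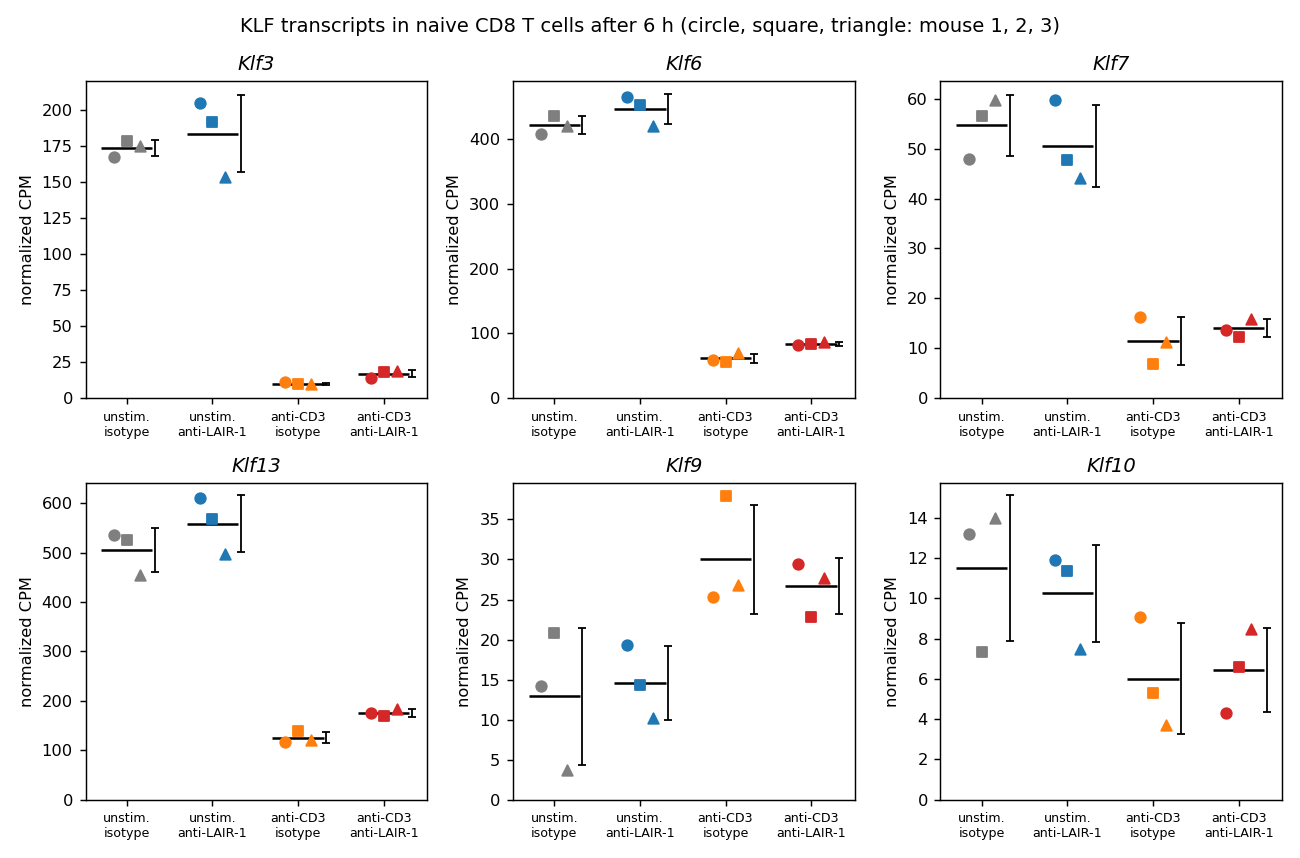
Normalised CPM (vertical axes, each starting at 0) of the 6 testable KLF genes in each library, by condition. Circles, squares and triangles are mice 1, 2 and 3, bars are means and error bars the SD over 3 mice. Klf3, Klf6, Klf7 and Klf13 dropped in every library with anti-CD3, Klf9 was higher there, and the Klf10 points of stimulated and unstimulated cells overlap.

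Stimulation through CD3 lowered 5 members and raised 1. In cells with isotype control, Klf3 fell 17.8-fold, Klf6 7.02-fold, Klf7 5.01-fold, Klf13 4.13-fold and Klf10 2.06-fold, and Klf9 rose 2.17-fold (edgeR quasi-likelihood test, Benjamini-Hochberg over all genes tested). All 6 testable members were thus called, but so were 71.4% of the 8441 protein-coding genes tested (35.6% higher, 35.7% lower). The median log2 fold change was -2.19 over the 6 members and -0.01 over all genes. In 5 of the 6 the libraries of the 2 groups did not overlap, against 73.6% of all genes.

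Klf3, a repressor that works through CtBP and is known to limit galectin-3 expression, had the steepest fall. In unstimulated cells with isotype it measured 167, 179 and 175 CPM in mice 1, 2 and 3 (174 ± 5.82, SD, n = 3). With anti-CD3 and isotype it measured 10.9, 9.52 and 9.80 CPM (10.1 ± 0.711). The 2 groups were far apart, with a log2 fold change of -4.15 (SE 0.14, adjusted p = 1.4e-17).

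Klf6 and Klf7, the members with acidic activation domains, both fell. Klf6, also studied as a tumour suppressor that induces the cell cycle inhibitor p21, went from 408, 436 and 421 CPM (422 ± 13.9) to 58.3, 56.1 and 69.2 CPM (61.2 ± 7.04). Its log2 fold change was -2.81 (SE 0.11, adjusted p = 1.4e-16), and no stimulated library came near an unstimulated one. Klf7, best known from developing neurons, went from 47.9, 56.6 and 59.7 CPM (54.7 ± 6.13) to 16.3, 6.77 and 11.2 CPM (11.4 ± 4.77). The stimulated values spread widely between mice, yet all lay below the unstimulated ones (log2 fold change -2.33, SE 0.22, adjusted p = 1.5e-09).

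The SIN3-type members split. Klf13, known in T cells as RFLAT-1, an activator of the chemokine gene Ccl5, fell from 535, 527 and 455 CPM (506 ± 44.0) to 117, 139 and 122 CPM (126 ± 11.4), a log2 fold change of -2.04 (SE 0.10, adjusted p = 1.5e-14). Klf9, a gene induced by glucocorticoid and thyroid hormones in many tissues, moved the other way. It measured 14.2, 20.8 and 3.77 CPM in unstimulated cells with isotype (12.9 ± 8.58) and 25.4, 37.9 and 26.8 CPM with anti-CD3 and isotype (30.0 ± 6.85). All stimulated libraries were above all unstimulated ones, although the value of mouse 3 without stimulation rested on 7 reads (log2 fold change 1.12, SE 0.29, adjusted p = 0.00158). Leaving that library out gave a log2 fold change of 0.76 (adjusted p = 0.00669), with the call unchanged.

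Klf10, the TGF-β-inducible early gene, was the least certain of the called members. It measured 13.2, 7.33 and 14.0 CPM in unstimulated cells with isotype (11.5 ± 3.64) and 9.06, 5.29 and 3.69 CPM with anti-CD3 and isotype (6.01 ± 2.75), from 18 to 40 reads per library. The groups overlapped, because mouse 2 unstimulated lay below mouse 1 stimulated (log2 fold change -1.04, SE 0.34, adjusted p = 0.00986). DESeq2 did not call it (adjusted p = 0.0626), and the call was also lost without mouse 3 of the stimulated group (-0.72, adjusted p = 0.0839) or mouse 1 of the unstimulated group (-0.90, adjusted p = 0.0644).

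In cells cultured on anti-LAIR-1, anti-CD3 again lowered Klf3, Klf6, Klf7, Klf10 and Klf13 and raised Klf9; these 6 libraries share mice, but no library, with those above. Klf3 measured 205, 192 and 154 CPM without anti-CD3 (184 ± 26.8) and 14.1, 17.9 and 18.8 CPM with it (17.0 ± 2.48), 11.0-fold lower (log2 fold change -3.46, SE 0.13, adjusted p = 3.3e-14). Klf6 went from 465, 453 and 421 CPM (446 ± 23.0) to 81.6, 83.0 and 87.4 CPM (84.0 ± 3.01), 5.35-fold lower (adjusted p = 7.2e-15). Klf13 went from 611, 569 and 497 CPM (559 ± 57.8) to 175, 169 and 183 CPM (176 ± 7.27), 3.20-fold lower (adjusted p = 1.3e-12). None of these groups overlapped.

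Klf7 fell 3.65-fold on anti-LAIR-1, from 59.7, 47.7 and 44.1 CPM (50.5 ± 8.21) to 13.7, 12.3 and 15.9 CPM (14.0 ± 1.79; adjusted p = 2.4e-09). Klf9 rose 1.82-fold, from 19.4, 14.3 and 10.1 CPM (14.6 ± 4.61) to 29.5, 22.8 and 27.7 CPM (26.7 ± 3.48; adjusted p = 7.1e-04). Klf10 again had overlapping groups, 11.9, 11.4 and 7.48 CPM (10.3 ± 2.42) against 4.31, 6.58 and 8.46 CPM (6.45 ± 2.08). Its log2 fold change of -0.71 (SE 0.28, adjusted p = 0.0300) was not called by DESeq2 (adjusted p = 0.134). The Klf10 call was also lost without mouse 1 or mouse 2 of either group, at adjusted p values of 0.0636 to 0.180. In this comparison 72.8% of 8723 protein-coding genes were called (36.8% higher, 36.0% lower) and 75.0% had groups that did not overlap. The median log2 fold change was -1.77 over the members and -0.02 over all genes.

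**Figure D2:**
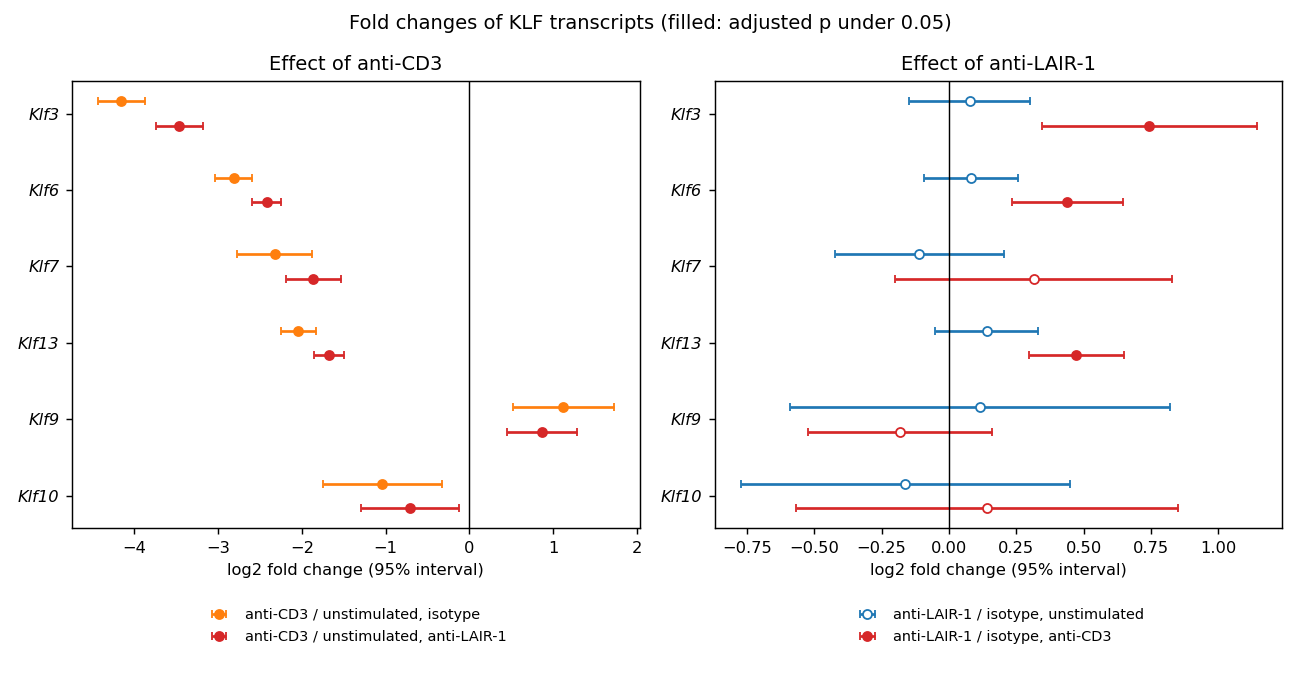
Log2 fold changes with 95% intervals of the 6 testable KLF genes for anti-CD3 (left) and for anti-LAIR-1 (right), filled where the adjusted p is under 0.05. With anti-CD3 the changes run from -4.15 (Klf3, isotype) to 1.12 (Klf9, isotype); with anti-LAIR-1, Klf3, Klf6 and Klf13 are filled at 0.74, 0.44 and 0.47 in stimulated cells and no gene is filled in unstimulated cells.

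Anti-LAIR-1 raised Klf3, Klf6 and Klf13 in stimulated cells. Klf3 was 1.67-fold higher than with isotype, Klf13 1.39-fold and Klf6 1.36-fold, while Klf7, Klf9 and Klf10 did not pass the test. Of the 6 members 3 were called higher and none lower, where 3.92% of 8539 protein-coding genes tested were called higher and 1.87% lower (5.80% in all). The same 3 members were those whose libraries did not overlap between groups, against 24.1% of all genes. The median log2 fold change was 0.38 over the 6 members and 0.00 over all genes. Of the KLF genes outside the member list that could be tested, Klf2 was called higher, and Klf11 and Klf16 were not called. Of the 7 T cell markers, 3 were called higher in the same comparison (Cd3g 0.54, Cd3e 0.45 and Cd3d 0.45 on the log2 scale) and Thy1 lower (-0.33, lost under 4 of 16 alternatives), and the part of this shift in the member changes was not tested.

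For Klf13, the 117 to 139 CPM with isotype became 169 to 183 CPM on anti-LAIR-1, a log2 fold change of 0.47 (SE 0.08, 95% interval 0.30 to 0.65, adjusted p = 0.00241). Within mice the differences were 0.58, 0.28 and 0.59 on the log2 scale. Klf13 passed the test under each of the 16 alternatives of processing and of left-out libraries that were run.

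For Klf6, the range of 56.1 to 69.2 CPM became 81.6 to 87.4 CPM, a log2 fold change of 0.44 (SE 0.10, 95% interval 0.23 to 0.65, adjusted p = 0.0122). The mice differed by 0.48, 0.56 and 0.33. The call was lost without mouse 2 of the isotype group (0.37, adjusted p = 0.0720) and in DESeq2 with the mouse as a block (adjusted p = 0.0771), though not in edgeR with the same block (adjusted p = 0.00849).

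Klf3 rose most in size and least surely in the test. All values with anti-LAIR-1 (14.1 to 18.8 CPM) lay above all values with isotype (9.52 to 10.9 CPM), and the mice differed by 0.37, 0.88 and 0.91. The log2 fold change was 0.74 (SE 0.19, 95% interval 0.34 to 1.14, adjusted p = 0.0274). DESeq2 gave an adjusted p of 0.0636, or 0.291 with the mouse as a block, where edgeR with that block gave 0.0296. Leaving out mouse 2 or mouse 3 of either group gave adjusted p values of 0.0891 to 0.105 with log2 fold changes of 0.66 to 0.71.

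The other members had wide intervals. Klf7 differed by 0.31 (SE 0.24, 95% interval -0.20 to 0.83, adjusted p = 0.544), with 2 mice higher and mouse 1 lower. Klf9 differed by -0.18 (SE 0.16, 95% interval -0.52 to 0.16, adjusted p = 0.614). Klf10 differed by 0.14 (SE 0.34, 95% interval -0.57 to 0.85, adjusted p = 0.877), with mice at -0.99, 0.29 and 1.10. The intervals of Klf7 and Klf10 hold the size of change seen for Klf3, so a rise of that size was not excluded for them. The interval of Klf9 does not reach the changes of Klf6 and Klf13.

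In unstimulated cells no member was called with anti-LAIR-1. edgeR called 0 of 6 members (0 at an unadjusted p under 0.05) and 0% of 8500 protein-coding genes, with 365 genes (4.29%) at an unadjusted p under 0.05. DESeq2 called 0 members and 0 genes. Klf13 differed by 0.14 (SE 0.09, 95% interval -0.05 to 0.33), and was higher within each mouse (0.19, 0.11 and 0.13), yet its groups overlapped. Klf3 and Klf6 both differed by 0.08 (95% intervals -0.15 to 0.30 and -0.09 to 0.25), Klf7 by -0.11 (-0.42 to 0.20), Klf9 by 0.11 (-0.59 to 0.82) and Klf10 by -0.16 (-0.77 to 0.45), all with an adjusted p of 0.997. Groups of all 6 members overlapped, as did those of most genes (9.69% did not).

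**Figure D3:**
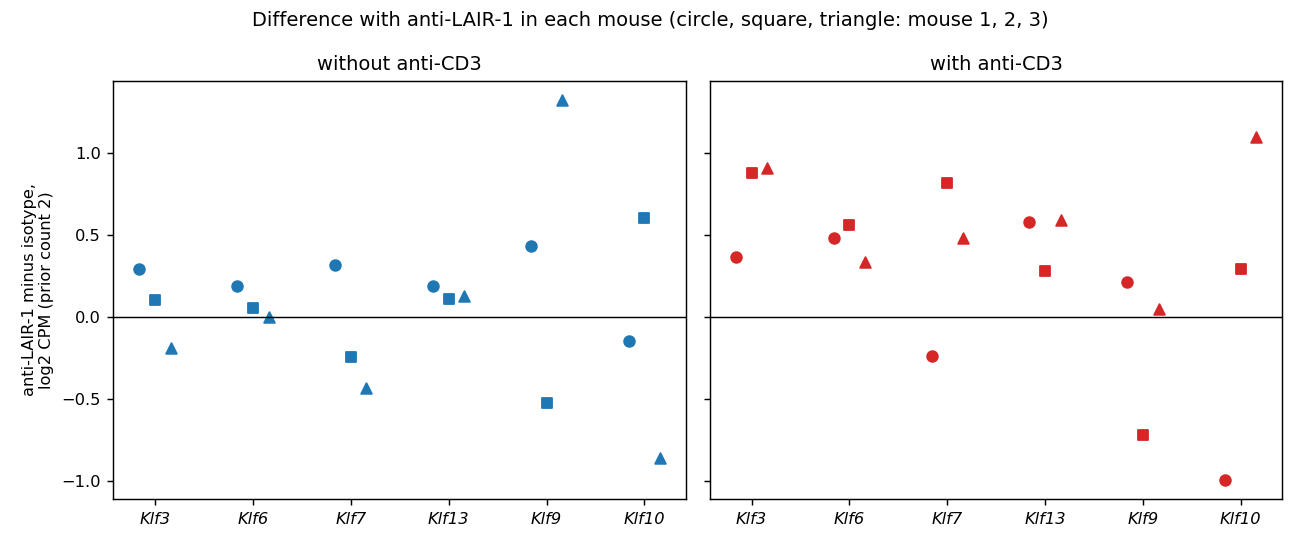
Difference between anti-LAIR-1 and isotype within each mouse, in log2 CPM with a prior count of 2, without anti-CD3 (left) and with anti-CD3 (right), for the 6 testable KLF genes. Circles, squares and triangles are mice 1, 2 and 3. With anti-CD3, Klf3, Klf6 and Klf13 lie above 0 in all 3 mice, from 0.28 to 0.91, while Klf10 runs from -0.99 to 1.10.

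An interaction term over all 12 libraries tested whether anti-LAIR-1 acted differently on members in stimulated and in unstimulated cells. edgeR called 0 of 6 members, DESeq2 called 0 of the 5 it gave an adjusted p for, and in edgeR 3 members were at an unadjusted p under 0.05. These were Klf3 (difference of log2 fold changes 0.67, SE 0.20, adjusted p = 0.0900), Klf6 (0.36, SE 0.13, adjusted p = 0.170) and Klf13 (0.34, SE 0.13, adjusted p = 0.243). Klf3 came under the threshold without mouse 1 of the anti-CD3 with anti-LAIR-1 group (0.79, adjusted p = 0.0438). Klf7 was at 0.43, Klf10 at 0.31 and Klf9 at -0.28. Of all 8916 protein-coding genes tested, 2.09% were called (1.84% higher, 0.247% lower), and the median was 0.04. For the 6 tested members, an effect of anti-LAIR-1 that depends on anti-CD3 was therefore not shown by this test, although the 3 members passed in stimulated cells alone. Klf2, which is not a member, was called by it (0.69, edgeR adjusted p = 0.0417) and is described further below.

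Ordered by level, Klf3, Klf6 and Klf13 had the same sequence of conditions, much of which restates the calls by which they were grouped. Unstimulated cells with anti-LAIR-1 and with isotype stood highest and overlapped, anti-CD3 with anti-LAIR-1 came next, and anti-CD3 with isotype was lowest, with no overlap at the last 2 steps. Against unstimulated cells with isotype, Klf3 with both antibodies stood at 17.0 of 174 CPM, Klf6 at 84.0 of 422 CPM and Klf13 at 176 of 506 CPM. Klf7 had a single clear step, between unstimulated (44.1 to 59.7 CPM) and stimulated libraries (6.77 to 16.3 CPM), and neighbours on either side of it overlapped. Klf9 had its single step the other way, between 3.77 to 20.8 CPM and 22.8 to 37.9 CPM. For Klf10 all neighbouring conditions overlapped.

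The genes with the profile most like each member over the 12 libraries were found by the root mean square difference of log2 CPM, centred per gene, among 5151 genes with a mean of at least 20 CPM, the member itself left out. For Klf3 they were Scml4 (0.13), Tecpr1 (0.16) and Arl4c (0.19), for Klf6 Fam102a (0.11), Aes (0.13) and 4930523C07Rik (0.13), and for Klf13 Ablim1 (0.089), Tmem66 (0.094) and Itm2b (0.11). The closest to Klf7 was Wrn (0.22), to Klf9 Yy2 (0.24), and to Klf10 Ccni (0.29). Ablim1 shows the Klf13 pattern plainly, with 334 ± 29.2 CPM in unstimulated cells on isotype, 340 ± 14.2 CPM in those on anti-LAIR-1, 86.1 ± 12.2 CPM after anti-CD3 on isotype and 116 ± 1.17 CPM after anti-CD3 together with anti-LAIR-1. Scml4, listed for the conditions in that same sequence, measured 113 ± 3.95, 112 ± 8.44, 6.63 ± 0.300 and 11.4 ± 0.766 CPM. The likeness is a description over libraries that share mice and conditions.

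Among the other KLF and SP factors, 7 of 19 listed could be tested: Klf2, Klf11, Klf16, Sp1, Sp2, Sp3 and Sp4. With anti-CD3 and isotype 5 fell and 1 rose, where 35.7% of all protein-coding genes fell and 35.6% rose. Klf2, the quiescence factor, fell by 3.74 on the log2 scale (SE 0.10, adjusted p = 3.0e-19), and Klf11, a SIN3-type relative of Klf10, fell by 2.64 (SE 0.27, adjusted p = 7.4e-09). Sp2, Sp3 and Sp4 fell by 0.93, 0.89 and 0.97, Klf16 rose by 0.52 (adjusted p = 0.0190) and the broadly expressed Sp1 did not pass (-0.11, adjusted p = 0.299). With anti-LAIR-1 on stimulated cells only Klf2 of these 7 was called, 2.03-fold higher (log2 fold change 1.02, SE 0.11, adjusted p = 2.8e-05). Of all protein-coding genes tested there, 3.92% were called higher and 1.87% lower. Klf2 measured 104, 108 and 105 CPM with isotype and 173, 239 and 237 CPM with anti-LAIR-1, and its groups did not overlap. Beside it, the changes of Klf3 (0.74), Klf13 (0.47) and Klf6 (0.44) had the same sign; the 4 genes were measured in the same libraries. Klf4, Klf5 and Klf8 were at or under 4.30 CPM in every library and could not be tested.

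**Figure D4:**
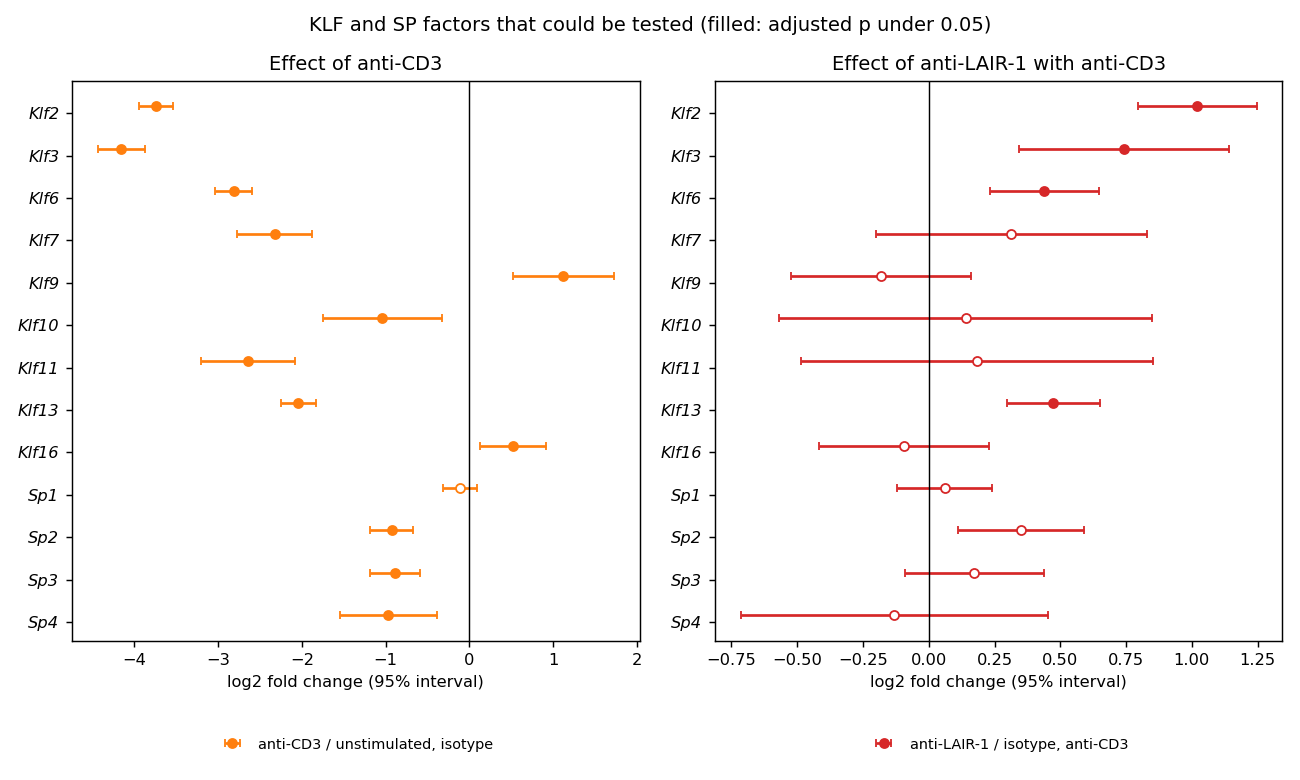
Log2 fold changes with 95% intervals of the 13 KLF and SP genes that could be tested, for anti-CD3 with isotype (left) and for anti-LAIR-1 with anti-CD3 (right), filled where the adjusted p is under 0.05. On the left all but Klf9 and Klf16 lie below 0 and Sp1 is open at -0.11; on the right the filled genes are Klf2 (1.02), Klf3 (0.74), Klf13 (0.47) and Klf6 (0.44).

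The cofactors through which KLF proteins act changed in both directions, near the shares of all genes. Of 14 tested of 15 listed corepressors and coactivators, 5 rose and 5 fell with anti-CD3 and isotype, with a median log2 fold change of 0.17. Of all protein-coding genes tested there, 35.6% rose and 35.7% fell. Kat2b, the acetyltransferase PCAF, fell by 3.13 (SE 0.41) and Ep300, the acetyltransferase p300, fell by 1.19 (SE 0.15). Sap30 (1.53, SE 0.26) and Hdac2 (1.17, SE 0.10), both parts of SIN3 complexes, rose, whereas the scaffold Sin3a fell by 0.89 (SE 0.13). Ctbp1, the partner of KLF3 and KLF12, rose with anti-CD3 in cells on anti-LAIR-1 (0.35, SE 0.07, adjusted p = 2.2e-04) and was not called in cells on isotype, and the interaction test did not call the difference. With anti-LAIR-1 on stimulated cells 0 of the 14 were called by edgeR, where 5.80% of all protein-coding genes were.

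Genes reported elsewhere as targets or inducers of KLF members were read in the same way. Cdkn1a, which encodes p21, rose by 3.76 with anti-CD3 and isotype (SE 0.15, adjusted p = 2.5e-16), in the libraries in which Klf6 fell. Smad7, an inhibitor of TGF-β signalling that KLF10 is known to repress, fell by 2.81 (SE 0.23, adjusted p = 1.4e-10), in the libraries in which Klf10 was lower. Ccl5 did not pass with isotype (-0.73, adjusted p = 0.102) and fell by 1.11 on anti-LAIR-1 (SE 0.32, adjusted p = 0.00439). None of the 3 was called with anti-LAIR-1 on stimulated cells, where Smad7 was at 0.69 (adjusted p = 0.145).

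Of 9 tested TGF-β and SMAD genes, 5 fell with anti-CD3 and isotype: Smad7, the receptor gene Tgfbr2 (-2.58, SE 0.13), Smad4 (-1.44, SE 0.14), Ski and Skil. Among all protein-coding genes 35.7% fell and 35.6% rose with anti-CD3 and isotype. None of 10 TGF-β and SMAD genes was called with anti-LAIR-1 on stimulated cells, where 5.80% of all genes were. Of 6 tested glucocorticoid-responsive genes, which share that hormone with Klf9, 4 fell with anti-CD3 and isotype (Tsc22d3, which encodes GILZ, by 3.81; the receptor gene Nr3c1 by 1.60; Dusp1 by 1.52; Sgk1 by 1.33), and Per1 rose (1.24, SE 0.19), as Klf9 did. With anti-LAIR-1 on stimulated cells Tsc22d3 alone of the 6 was called (0.89, SE 0.19, adjusted p = 0.0101).

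Naive T cell genes that depend on KLF2 fell with anti-CD3 in 4 of 4 cases and were higher with anti-LAIR-1 on stimulated cells in 3. Among all protein-coding genes, 35.7% fell with anti-CD3 on isotype and 36.0% on anti-LAIR-1. With anti-LAIR-1 on stimulated cells 3.92% were called higher and 1.87% lower. The 4 genes were listed with earlier results of these data known. S1pr1, the receptor for egress from lymphoid organs, was at 1.97 (SE 0.16, adjusted p = 1.6e-06), Il7r at 1.33 (SE 0.22) and Itgb7 at 1.04 (SE 0.27, adjusted p = 0.0299). The Itgb7 call was lost under 7 of 15 alternatives, with adjusted p values up to 0.421. Ccr7 was not called (-0.21, adjusted p = 0.337). Of 12 tested early activation genes, Il2ra (-0.49, SE 0.08) and Ifng (-1.44, SE 0.17) fell with anti-LAIR-1 on stimulated cells, and none rose.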

How the data were processed

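RNA-sequencing of 12 libraries was analysed from 1 table of raw read counts per gene symbol, as the authors deposited it. Per the study's methods, RNA was extracted with TRIzol and the libraries followed an adapted CEL-seq protocol, in which the 3′ end of each transcript is read and samples are told apart by barcodes. Reads were aligned to the mm10 transcriptome with BWA MEM, reads with several equally good positions were discarded, and counts were made with MapAndGo. The submitters' processing notes name BWA and mm10 as well. Versions, the use of strand in counting and any collapsing of molecular identifiers are not given in the sources used here, so intervals cover counting error and spread between mice only.

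Counts were tested with edgeR 4.0.16 (R 4.3.3; TMM factors of 0.950 to 1.07, filterByExpr with a minimum count of 10, quasi-likelihood F-test), on the 2 groups of each comparison, or on all 12 libraries for the interaction. P-values were adjusted by the Benjamini-Hochberg method over all genes tested (8690 to 9223), two-sided, with a threshold of 0.05. As in the study, genes that are not protein coding were then left out of counts of genes. Of 14323 symbols, 13424 were matched to GENCODE M21, 849 to RefSeq names and 50 to neither, leaving 13161 protein-coding genes. Levels are CPM after TMM scaling, and intervals are 95% intervals of the fit. Samples were grouped by their labels. Pairs of replicate libraries differed by 3.82 to 5.62 in chi-square per gene, so none was a copy of another.

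The labels give the same 3 mouse numbers in each condition and the methods divide the cells of each mouse over the plate, so the numbers pair the libraries; the deviations of same-mouse libraries had a mean correlation of 0.0489 (-0.00682 to 0.0882). The study's methods state no block for the mouse and no design formula, so the fit with the block is an alternative. They name DESeq2, not edgeR, as the tool for differential expression. DESeq2 without the block called Klf6 and Klf13, but not Klf3, with anti-LAIR-1 on stimulated cells. Other alternatives were DESeq2 1.42.0 with and without the block, other scalings, filters on low counts, a fit of all libraries, leaving out each library in turn and, chosen after seeing the data, thinning every library to 1781218 reads. The scripts were tested on simulated counts. 1 list gene is not reported here. The members and gene lists were chosen with earlier results of these data known. Named were all members with their value in every library, up to 6 called genes per list by size of change, and the 3 genes most like each member.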

Additional observations from a re-analysis of the deposited data

Results flagged for a closer look

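The interaction test over all 12 libraries asked whether the anti-LAIR-1 effect differed between stimulated and unstimulated cells. It called 7 of the listed genes, among them Klf2 and no other KLF gene. They were 3 of 4 KLF2-dependent genes, 2 of 7 T cell markers, 1 of 7 other KLF and SP factors and 1 of 6 glucocorticoid-responsive genes. None was called of 6 members, 14 cofactors, 12 early activation genes, 9 TGF-β and SMAD genes and 3 reported targets. The lists were chosen with earlier results of these data known. Of all 8916 protein-coding genes tested, 2.09% were called. Klf2 had a difference of log2 fold changes of 0.69 (SE 0.18, edgeR adjusted p = 0.0417). It passed under 10 of 21 alternatives, with adjusted p values up to 0.261; DESeq2 did not call it, and mouse 1 showed almost none of it (0.018, against 1.18 and 0.89 in mice 2 and 3). Klf3, at 0.67 with an adjusted p of 0.0900, is the member nearest to it. Among genes that depend on KLF2, S1pr1 was at 1.92 (SE 0.17, adjusted p = 2.1e-07), called under all 21 alternatives run. Il7r was at 1.17 (SE 0.25, adjusted p = 0.0100, called under 19 of 21) and Itgb7 at 1.09 (SE 0.26, adjusted p = 0.0248, called under 15 of 21). Tsc22d3, a glucocorticoid-responsive gene, was at 0.89 (SE 0.21, adjusted p = 0.0228, called under 14 of 21). Of the T cell markers, Cd3g was at 0.58 (SE 0.12, adjusted p = 0.00933, called under 20 of 21) and Cd3e at 0.50 (SE 0.12, adjusted p = 0.0227, called under 14 of 21). No group had enough libraries for a test of single outlying values.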

How the results depend on the processing

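Of 504 values of single members under alternatives, 475 kept their direction and their side of the threshold, 19 lost the call, 1 gained it and 9 changed sign. Klf13 with anti-LAIR-1 on stimulated cells passed under all 16 alternatives. Klf6 lost its call in DESeq2 with the mouse block (adjusted p = 0.0771) and without mouse 2 of the isotype group, and Klf3 in DESeq2, in DESeq2 with the block (adjusted p = 0.291) and in 4 of 6 fits without 1 library. With the mouse as a block in edgeR, 537 genes and the same 3 members were called (adjusted p of 0.0296 for Klf3, 0.00849 for Klf6 and 0.00296 for Klf13), and the block in edgeR changed no other call of a member. DESeq2 with the block called 220 genes and 1 member (Klf13). Thinning called 293 genes and 3 members. Leaving out 1 library called 286 to 418 genes (495 with all) and 1 to 3 members. In unstimulated cells, anti-LAIR-1 gave 3 called genes with no filter and 0 to 1 without 1 library. The interaction gave 109 genes when thinned and 100 to 179 without 1 library (186 with all), with 0 to 1 members called. With no filter on low counts Klf12, at 5 reads in 1 library against none, was called lower with anti-CD3 and isotype, making 7 members. The cause of these changes was not tested, apart from fewer reads or samples where an alternative removes them.

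The sign changes were all in uncalled values. With anti-LAIR-1 on stimulated cells, Klf9 was at 0.11 when thinned. Leaving out 1 library at a time gave -0.28 to 0.019 for Klf9 (highest without mouse 2 of the isotype group) and -0.17 to 0.50 for Klf10 (below 0 without mouse 3 of either group, at -0.089 for the anti-LAIR-1 group). In unstimulated cells it gave -0.0083 to 0.19 for Klf3 (below 0 without mouse 1 of the anti-LAIR-1 group), -0.25 to 0.57 for Klf9 (below 0 without that library, at -0.13, or mouse 3 of the isotype group) and -0.40 to 0.017 for Klf10 (above 0 without mouse 3 of the anti-LAIR-1 group). The Klf9 interaction ran from -0.73 to 0.070 (above 0 without mouse 3 of the unstimulated isotype group).

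Upper-quartile scaling moved the median log2 fold change of all genes with anti-CD3 to -0.19 (isotype) and -0.23 (anti-LAIR-1), and library totals alone to -0.11 and -0.13; no member changed direction. In a fit of all 12 libraries 79.7% of the genes called with anti-LAIR-1 on stimulated cells were higher, against 67.7% in the fit of the 2 groups and 61.8 to 72.4% under the other settings. Reads were few for Klf10 (18 to 43 per library), for Klf9 in the shallowest libraries and for Klf12. With every library thinned to the smallest total, the Klf10 call for anti-CD3 was lost on anti-LAIR-1 and kept on isotype. Apart from that thinning, the part of depth, beside spread between mice, in their results was not tested.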

Other observations

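KLF11, a SIN3-type repressor, and KLF10 are close relatives, and their genes can be set side by side. Klf11 measured 19.2, 21.2 and 24.7 CPM in unstimulated cells with isotype and 3.32, 4.02 and 3.21 CPM with anti-CD3 and isotype, with no overlap between the groups. On anti-LAIR-1 it fell by 2.03 on the log2 scale (SE 0.27, adjusted p = 1.2e-06). With anti-LAIR-1 on stimulated cells it differed by 0.18 (95% interval -0.49 to 0.85). Klf16 measured 21.5 to 26.4 CPM in unstimulated cells with isotype and 27.2 to 44.7 CPM with anti-CD3 and isotype; its call there was lost under 6 of 16 alternatives.

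Klf9 had 1 gene whose profile was closer than the rest. This gene, Yy2, differed by 0.24, while the next, Polr2d and Rars2, differed by 0.38 and 0.39. Yy2 measured 18.6 ± 9.22 CPM in unstimulated cells on isotype, 20.1 ± 4.32 CPM in those on anti-LAIR-1, 38.4 ± 6.49 CPM after anti-CD3 on isotype and 36.8 ± 5.11 CPM after anti-CD3 together with anti-LAIR-1 (SD, n = 3). For Klf7 the closest genes after Wrn were Capn1 and Gpd1l, at 0.22 and 0.23, and for Klf10 after Ccni they were AI837181 (0.30) and Fbxo9 (0.32). The closest genes of Klf12 (Trim11, Vps52 and Helz, at 0.53 to 0.56) are set by 9 reads.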
